A study of Tigriopus californicus with 4 samples.

Results

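The hsp70 family was followed in the intertidal copepod Tigriopus californicus, in 2 populations, San Diego (SD) and Santa Cruz (SC), with 1 control and 1 heat stress library per population. Members were the assembled transcript contigs whose deposited product name read hsp70, heat shock 70, heat shock protein 70, heat shock protein 71 or heat shock cognate, without names containing interacting, binding, organizing or hsp90. This gave 13 of 20278 contigs in SD and 17 of 20931 in SC, or 30 of 41209 in all. Each library was made from a pool of 300 to 400 laboratory-kept animals of all developmental stages, so a value is an average over sexes, stages and tissues. SD control and SC control were held at 20°C, and SD heat stress and SC heat stress were held at 35°C for 1 h and then left for 1 h at 20°C before RNA was extracted. Controls were sequenced in 1 lane and heat stress libraries in the next, so lane and treatment cannot be told apart.

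Hsp70 proteins are ATP-driven chaperones that hold unfolded stretches of other proteins and release them to fold. Cognate (hsc70) forms are made in unstressed cells and serve everyday folding, whereas inducible forms are transcribed strongly when heat shock factor is activated by misfolded protein. J-domain proteins of the DnaJ (hsp40) group bring substrates and stimulate ATP hydrolysis, nucleotide exchange factors reset the cycle, and organizing proteins pass clients on to hsp90.

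Levels are in RPKM, the reads of a contig per kilobase of its length and per 1000000 mapped reads. The median contig was at 13.9 RPKM in the SD control and 13.8 after heat stress, and at 10.9 and 14.3 RPKM in SC. Heat stress over control RPKM was 0.977 for the median contig in SD and 1.32 in SC. Some changes in SC are therefore also given relative to its median contig, and all other SC ratios are unscaled. The recovered library totals were 1947202 reads (SD control), 5583127 (SD heat stress), 3256758 (SC control) and 4948622 (SC heat stress). Each condition had 1 library, so there was no replicate check among the libraries. Kal's Z-test compares a pair of libraries, not the conditions, and the 95% intervals beside fold changes cover counting error only. The authors also measured selected heat shock genes by quantitative PCR, in the same RNA and in further replicate samples. Those genes were not matched to contigs here. A member is said to have risen or fallen where this test on RPKM gave a Bonferroni adjusted p of at most 0.10 over all contigs of its population.

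In SD, 7 of 13 hsp70 contigs rose after heat stress and 0 fell, whereas 1.35% of all SD contigs rose and 1.24% fell. In SC, 11 of 17 rose and 0 fell, beside 3.05% and 2.49% of all SC contigs. The same test on recovered whole reads called 7 members up and 1 down in SD (1.4% and 1.78% of all contigs), and 10 up and 0 down in SC (10.9% and 7.03%). When the SC heat stress library was scaled to the median contig, 8 of the 17 rose, beside 1.21% of all contigs. Higher RPKM after heat stress, called or not, was found in 9 of 13 members in SD, beside 48.2% of all contigs, and in 16 of 17 in SC, beside 64.4%. Relative to the median contig 9 of 13 and 12 of 17 members were higher.

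The rising contigs started from different levels in the 2 populations. Those that rose at least 5-fold, or from 0, numbered 6 in each. Their control levels were 0 to 122 RPKM (median 2.04) in SD and 8.84 to 132 RPKM (median 76.1) in SC. After heat stress they stood at 67.5 to 1542 RPKM (median 365) in SD and 59.6 to 858 RPKM (median 646) in SC. The heat stress ranges overlapped over almost all of the SC range. Of the SD control levels 5 of 6 were listed below the lowest SC one, although the 2 at 0 RPKM have 3-read floors of 8.61 and 16.9 RPKM, and the lowest SC level rests on 4 reads. These contigs were selected by their fold change, and SD and SC were mapped to separate assemblies and normalised separately, so the levels are set side by side as a description and were not tested.

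**Figure D1:**
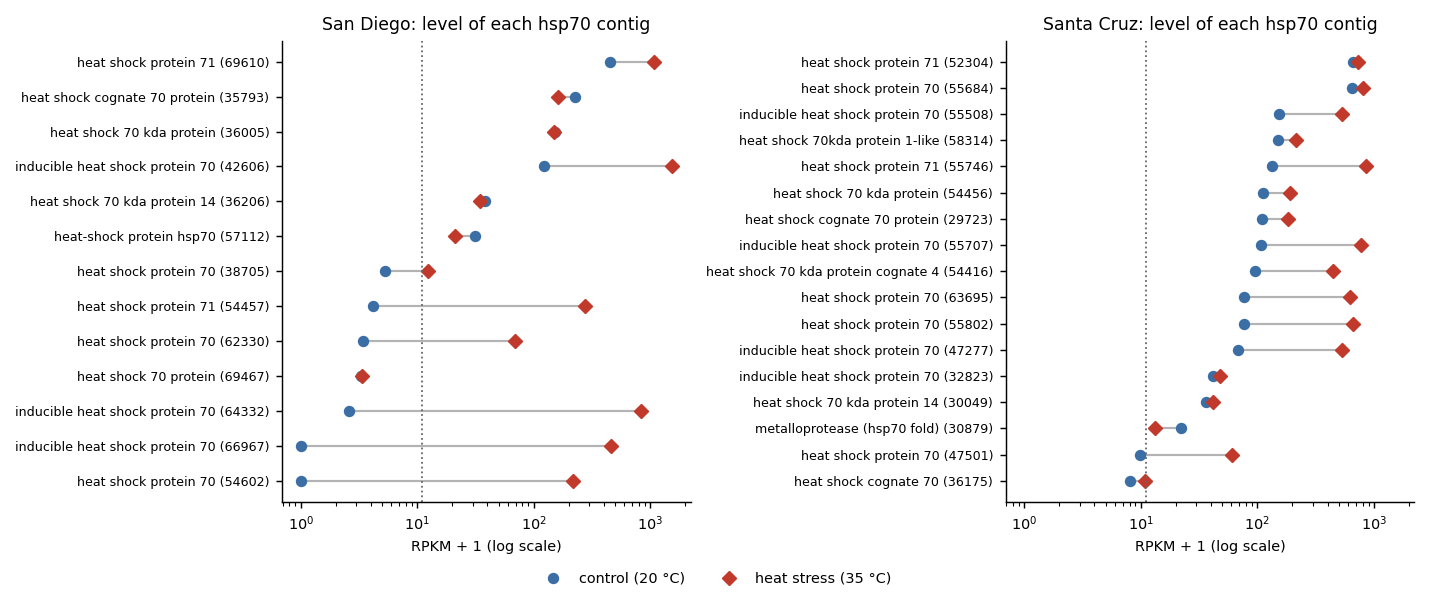
Level of each hsp70 contig in the control (circles) and heat stress (diamonds) library of SD (left) and SC (right), ordered by control level, in RPKM + 1 on a log axis; the number of each contig follows its product name and the dotted line marks a control level of 10 RPKM. In SD 7 contigs started to the left of the line, of which 5 rose to between 67.5 and 830 RPKM, whereas in SC 2 contigs did.

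Contigs with a control level under 10 RPKM were taken as low-control and the others as constitutive. The members nearest to this limit were at 4.34 and 30.2 RPKM in SD and at 8.84 and 21.3 RPKM in SC. Because the control level is also the denominator of the fold change, these classes are described and not tested. In SD, 5 of 7 low-control members rose, beside 1.76% of the 8011 SD contigs under 10 RPKM, and 2 of 6 constitutive members rose, beside 1.08% of the 12267 others. In SC, 1 of 2 low-control members rose, beside 0.822% of 9980 contigs, and 10 of 15 constitutive members rose, beside 5.08% of 10951. The median log2 change, with 1 RPKM added to both levels, was 6.04 in the 7 SD low-control members and 0.28 in all SD contigs of that range. With the 2 members that were at 0 in the control set to their lower bounds, the SD median was 4.75 without added RPKM. It was -0.10 in the SD constitutive members, as in all SD contigs of that range, where it was also -0.10. In SC it was 1.53 in the low-control members against 0.87 in all contigs under 10 RPKM, and 0.76 in the constitutive members against -0.10; without a metalloprotease contig that the name rule takes in, a setting added after the data were seen, the latter median of members was 1.27.

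At least 2-fold higher levels after heat stress were found in 21.8% of SD contigs above 0 and under 10 RPKM in the control, but in only 1.7% of SD contigs at 10 RPKM or more. In SC the shares were 50.1% and 9.11%. Read against these shares, 4 of the 5 SD low-control members above 0 and 2 of the 6 constitutive ones were at least 2-fold higher, as were 1 of 2 and 7 of 15 in SC. An at least 10-fold rise was found in 4 SD members above 0 in the control, beside 0.538% of all such SD contigs. It was found in 0 SC members, and the share over all SC contigs was not computed. The highest ratio of an SC member was 8.80, and 268 SC contigs above 0 in the control had a higher one.

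The 3 contigs named inducible heat shock protein 70 all rose in SD, by 12.7-fold or more. SD_Contig64332 was at 1.63 RPKM in the control and 830 RPKM after heat stress, from 1 and 1465 recovered reads. Its ratio of 511 (91.6 to 20195) was the highest of all SD contigs above 0 in the control, but it rests on a single control read. SD_Contig66967 was at 0 RPKM in the control and 457 RPKM after heat stress (0 and 232 reads), at least 27.0-fold higher when set against a floor of 3 control reads, which is worth 16.9 RPKM; the exact interval starts at 21.8. The best measured was SD_Contig42606, whose level went from 122 to 1542 RPKM with 493 and 17904 reads. That is a 12.7-fold rise (11.6 to 13.9), and it moved the contig from rank 895 to rank 39 among SD levels. The 3 contigs cover at least 316, 91 and 2080 bp, so the shorter ones may be pieces of longer transcripts.

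In SC the name inducible heat shock protein 70 was on 4 contigs, all with control levels of 10 RPKM or more, and 3 of them rose. SCN_Contig47277 was at 67.7 RPKM in the control and 530 RPKM after heat stress, 7.83-fold higher (5.39 to 11.8). SCN_Contig55707 was at 107 and 776 RPKM, 7.23-fold higher (6.20 to 8.48). SCN_Contig55508, at 153 and 533 RPKM, rose 3.48-fold (3.20 to 3.80) and had the most heat stress reads of the SC family, 3286. Relative to the median contig these ratios were 5.95, 5.49 and 2.65, and the calls held. The remaining one, SCN_Contig32823, was not called, with 40.4 RPKM in the control, 47.2 RPKM after heat stress and a ratio of 1.17 (0.972 to 1.41). The word inducible in a name thus did not mark a low control level in SC, nor in SD_Contig42606. Over the reads of all contigs with this name, the rate went from 254 to 3511 reads per 1000000 reads of the library (RPM) in SD, a ratio of 13.8 (12.7 to 15.2), and from 311 to 1199 in SC, a ratio of 3.86 (3.61 to 4.13).

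Contigs named plainly heat shock protein 70 were split in SD between strong and weak change. SD_Contig54602 was at 0 RPKM in the control and 217 RPKM after heat stress (0 and 217 reads), at least 25.2-fold higher against the 3-read floor of 8.61 RPKM, with an exact interval from 20.3. SD_Contig62330 was at 2.46 and 67.5 RPKM, a 27.4-fold rise with a wide interval (9.27 to 134) since the control held 3 reads. SD_Contig38705, the longest of the 3 at 2013 bp or more, was at 4.34 RPKM in the control and 11.5 RPKM after heat stress and was not called, with a ratio of 2.65 (1.59 to 4.68).

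The 4 SC contigs of this name all rose, but 1 of them by little. SCN_Contig55802 was at 75.7 RPKM in the control and 666 RPKM after heat stress, and its 8.80-fold rise (7.31 to 10.7) was the largest of the SC family. SCN_Contig63695, at 76.6 and 626 RPKM, was close to it in both libraries and rose 8.18-fold (6.66 to 10.1). Such near-equal contigs may be parts of a single transcript or near-identical copies that share reads, which the deposited values cannot separate. By the shortest length that fits the reads, 12 of 17 SC members but 5 of 13 SD members were under 1000 bp. SCN_Contig47501 was at 8.84 and 59.6 RPKM, 6.75-fold higher (2.44 to 25.9), from 4 and 41 reads, and the test on reads did not call it. SCN_Contig55684 was already at 653 RPKM in the control and stood at 799 RPKM after heat stress, 1.22-fold higher (1.15 to 1.30). Its ratio relative to the median contig was 0.929, so its call rests on the scaling.

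Heat shock protein 71, a name used for the cytosolic cognate form in mammals, was carried by contigs of both kinds. SD_Contig54457 was at 3.16 RPKM in the control and 273 RPKM after heat stress, an 86.4-fold rise (52.3 to 155) over 2435 bp or more, from 15 and 3717 reads. Of the SD low-control members that rose from above 0, it had the narrowest interval. SD_Contig69610 had the highest SD control level of the family, 450 RPKM, and rose to 1076 RPKM, 2.39-fold (2.28 to 2.51). In SC, SCN_Contig55746 rose 6.52-fold (5.28 to 8.13), from 132 to 858 RPKM, the highest heat stress level of the SC family. SCN_Contig52304 had the highest SC control level, 663 RPKM, and was not called at 730 RPKM after heat stress, a ratio of 1.10 (0.945 to 1.28). In both populations the contig of this name with the higher control level had the smaller ratio, of which that level is the denominator. The RPKM it gained was the larger in SD (627 against 270) and the smaller in SC (66.9 against 726). Both SC contigs are short, 224 and 126 bp at the least.

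**Figure D2:**
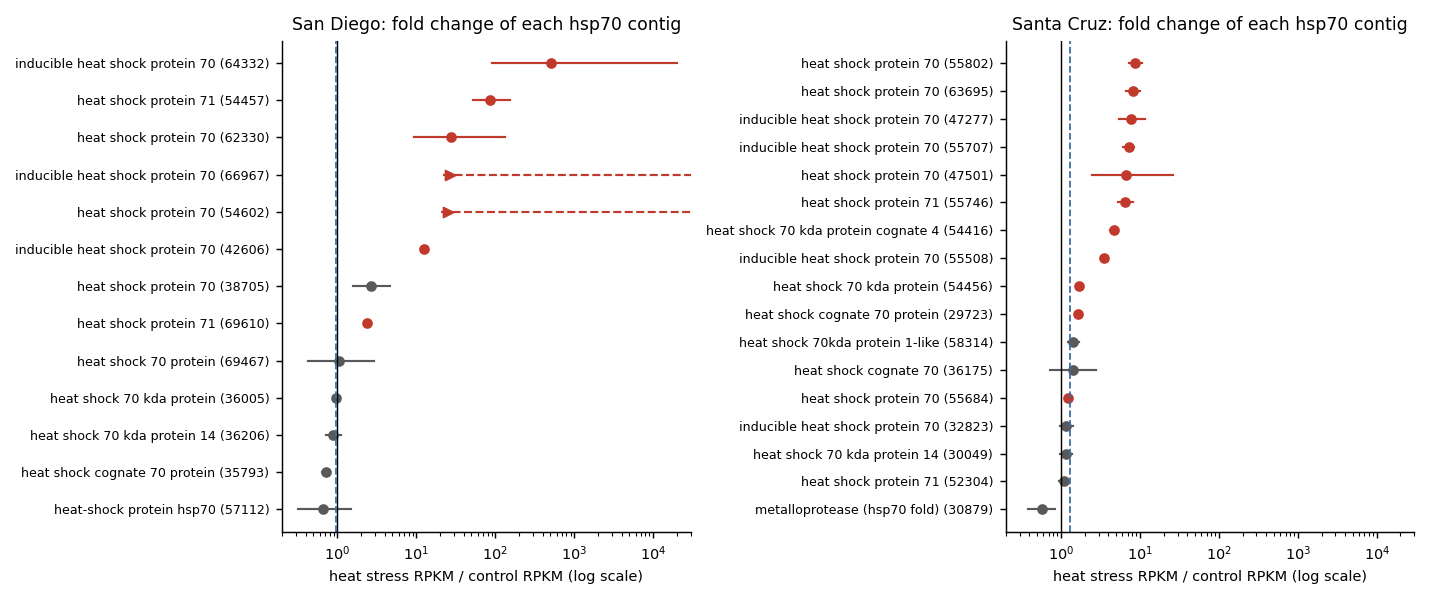
Heat stress RPKM over control RPKM of each hsp70 contig on a log axis, with the 95% counting interval as a line; red marks contigs that rose by the test, the solid line a ratio of 1 and the dashed line the median contig (0.977 in SD, 1.32 in SC). Triangles with dashed lines are lower bounds for contigs at 0 in the control. SD ratios ran up to 511, whereas SC ratios ended at 8.80.

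Cognate names were on 1 contig in SD and 3 in SC, of which 0 and 2 rose. The heat shock cognate 70 protein of SD, SD_Contig35793, was at 223 RPKM in the control and 162 RPKM after heat stress, a ratio of 0.724 (0.649 to 0.809). It was not called on RPKM but was called lower on reads, the single SD member that was. The SC contig of that name, SCN_Contig29723, was at 109 and 181 RPKM and rose 1.65-fold (1.53 to 1.79). Relative to the median contig its ratio was 1.26 and the call was lost. SCN_Contig54416, named heat shock 70 kda protein cognate 4 after the main cytosolic cognate of Drosophila, rose clearly, from 94.9 to 444 RPKM, 4.68-fold (4.14 to 5.31). SCN_Contig36175, heat shock cognate 70, was at 7.03 and 9.87 RPKM with 15 and 32 reads and was not called.

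The heat shock 70 kda protein was not called in SD and rose in SC. SD_Contig36005 was at 152 RPKM in the control and 147 RPKM after heat stress, a ratio of 0.967 (0.891 to 1.05), so a change of more than about 1.05-fold upwards was outside the counting interval. SCN_Contig54456 was at 112 and 189 RPKM, 1.69-fold higher (1.57 to 1.83), and 1.29-fold relative to the median contig, where it was no longer called. The heat shock 70 kda protein 14, whose human counterpart is part of a chaperone complex at the ribosome, was not called in either population. Its level was 37.2 RPKM in the control and 33.4 RPKM after heat stress in SD, a ratio of 0.896 (0.730 to 1.11). In SC it was 35.5 and 40.9 RPKM, a ratio of 1.15 (0.969 to 1.37). These 3 names, and no other member names, were each on 1 contig in both populations. The SD ratio over the SC ratio was 0.438 (0.382 to 0.502) for the heat shock cognate 70 protein, 0.571 (0.510 to 0.640) for the heat shock 70 kda protein and 0.779 (0.593 to 1.02) for protein 14. With each population set to its median contig they were 0.589, 0.769 and 1.05. A shared name does not establish that the contigs are the same gene, and with 1 library per condition the differences between populations were not tested over samples.

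None of the other members was called. In SD, SD_Contig69467 (heat shock 70 protein) was at 2.28 and 2.39 RPKM, and SD_Contig57112 (heat-shock protein hsp70) was at 30.2 and 20.2 RPKM with an interval of 0.319 to 1.47 around its ratio of 0.668. In SC, SCN_Contig58314 (heat shock 70kda protein 1-like) was at 149 and 214 RPKM, a ratio of 1.44 (1.21 to 1.70) that did not pass the threshold. SCN_Contig30879, a metalloprotease with an hsp70 fold that the name rule takes in and that is no hsp70 chaperone by name, was at 21.3 and 12.2 RPKM, a ratio of 0.572 (0.388 to 0.840), or 0.434 relative to the median contig.

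Summed over members, the SD family took 2030 RPM in the control (1967 to 2094) and 7379 after heat stress (7309 to 7451), a ratio of 3.64 (3.52 to 3.76). In SC it took 1777 (1732 to 1823) and 4189 (4132 to 4246), a ratio of 2.36 (2.29 to 2.43), or 1.79 relative to the median contig. As recovered, the control totals were nearer to each other than the heat stress totals. The members were found by name in 2 separate assemblies, each deposited in part. Recovered reads are minima, and the intervals do not cover this. The totals are therefore set side by side as a description and were not tested.

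The make-up of the family's reads shifted in SD. SD_Contig69610 (heat shock protein 71) held 50.6% of the family's reads in the control and 33.3% after heat stress, when the inducible SD_Contig42606 had gone from 12.5% to 43.5%. The heat shock 70 kda protein went from 19.9% to 5.30% and the heat shock cognate 70 protein from 12.3% to 2.45%. The low-control members together went from 1.09% to 14.6%, most of it SD_Contig54457 with 9.02% and SD_Contig64332 with 3.56%. In SC no contig was so dominant after heat stress: the largest share was 15.9%, of SCN_Contig55508, and the leading control contig, SCN_Contig55684, went from 28.1% to 14.6%. A share per contig rests on recovered reads, which are minima, and depends on how finely transcripts were split in the assembly. More members were under 1000 bp in SC (12 of 17) than in SD (5 of 13), so these shares do not compare genes between populations. The number of members among the 1000 highest contigs of a library rose from 4 to 8 in SD, out of 20278 contigs, and from 2 to 12 in SC, out of 20931. Pieces of 1 transcript would be counted separately here.

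**Figure D3:**
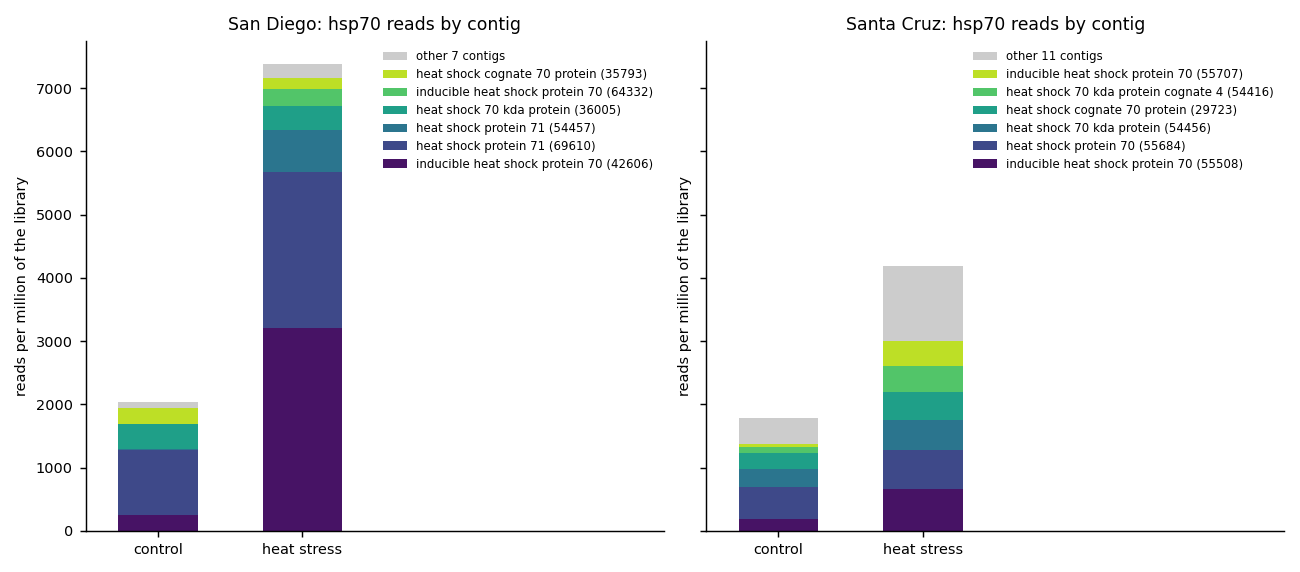
The hsp70 reads of each library, per 1000000 reads (RPM) and stacked by contig, for the control and heat stress libraries of SD and SC; the 6 contigs with most heat stress reads are coloured and the others are in grey. The bars reach 2030 and 7379 in SD and 1777 and 4189 in SC, and in SD the growth lies mainly in SD_Contig42606 and SD_Contig69610.

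The partners of hsp70 were taken as lists of product names: DnaJ proteins, nucleotide exchange factors, organizing and interacting proteins, hsp90, and hsp70 relatives of other compartments. Of 21 partner contigs in SD 7 rose and 0 fell, beside the 1.35% and 1.24% of all SD contigs, and of 18 in SC 2 rose and 1 fell, beside 3.05% and 2.49%. The test on reads called 9 up and 3 down in SC, where it called 10.9% and 7.03% of all contigs, and 7 up and 0 down in SD. A list for heat shock factor, the activator of inducible hsp70, matched 0 contigs under its search words and was not analysed here.

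Of the 7 DnaJ contigs of SD 1 rose, heat shock protein 40, from 205 to 375 RPKM, 1.83-fold (1.70 to 1.97), and the other 6 had ratios of 1.07 to 1.19. None of the 7 in SC was called on RPKM, whereas the test on reads called 3 up and 1 down. Of the 4 nucleotide exchange factors of SD 1 rose, hsc70cb, a member of the hsp110 group in Drosophila, from 166 to 316 RPKM, 1.90-fold (1.78 to 2.02). The 4 in SC had 0 calls on RPKM and 2 up on reads.

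Of the organizing and interacting proteins, which include those that bridge hsp70 and hsp90, 3 of 6 rose and 0 fell in SD, and 0 of 4 rose and 1 fell in SC. In SD the hsp70 hsp90 organizing protein homolog rose 3.17-fold (2.79 to 3.60), from 82.1 to 260 RPKM, and the contig named hsp70 hsp90 organizing protein rose 2.34-fold (1.80 to 3.07), from 78.6 to 184 RPKM. The hsp70 interacting contig SD_Contig48648 was at 0 and 41.2 RPKM, called on RPKM but not on its 32 heat stress reads. In SC the organizing protein homolog fell to 0.50 of its control level (0.456 to 0.548), from 216 to 108 RPKM. The SD ratio was 6.34 times the SC ratio (5.42 to 7.43), or 8.54 times relative to the median contigs, and was not tested over samples. These contigs were paired by name only, which does not establish that they are the same gene. The organizing protein that the authors paired by sequence rose in SD and had no significant change in SC. Other names of the list on 1 contig in each population had other patterns, none called on RPKM. The stip1 homology and u box-containing contig, named for a ubiquitin ligase that binds chaperones, had ratios of 0.828 in SD and 1.97 in SC, the latter called up on reads. The heat shock protein sti1 homolog had ratios of 0.654 and 0.439, and the hsc70-interacting protein 1.11 and 0.683, the latter called down on reads.

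Hsp90 takes over clients from hsp70, and 1 of 2 hsp90 contigs in SD and 2 of 2 in SC rose. SD_Contig62648 rose 5.67-fold (5.40 to 5.96), from 364 to 2063 RPKM, a higher heat stress level than any hsp70 contig. The other SD contig of that name, SD_Contig55178, was at 32.7 and 14.1 RPKM and was not called, with a ratio of 0.431 (0.216 to 0.870). SCN_Contig55670 rose 3.07-fold (2.88 to 3.28), from 299 to 917 RPKM, and the heat shock protein 90kda contig rose 6.52-fold (3.4 to 14), from 18.2 to 118 RPKM. The 78 kda glucose-regulated protein, the hsp70 of the endoplasmic reticulum, rose 5.95-fold (4.78 to 7.48) in SD, from 41.5 to 247 RPKM. In SC it was at 25.5 and 60.7 RPKM and was called on reads only, at a ratio of 2.38 (2.08 to 2.74).

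**Figure D4:**
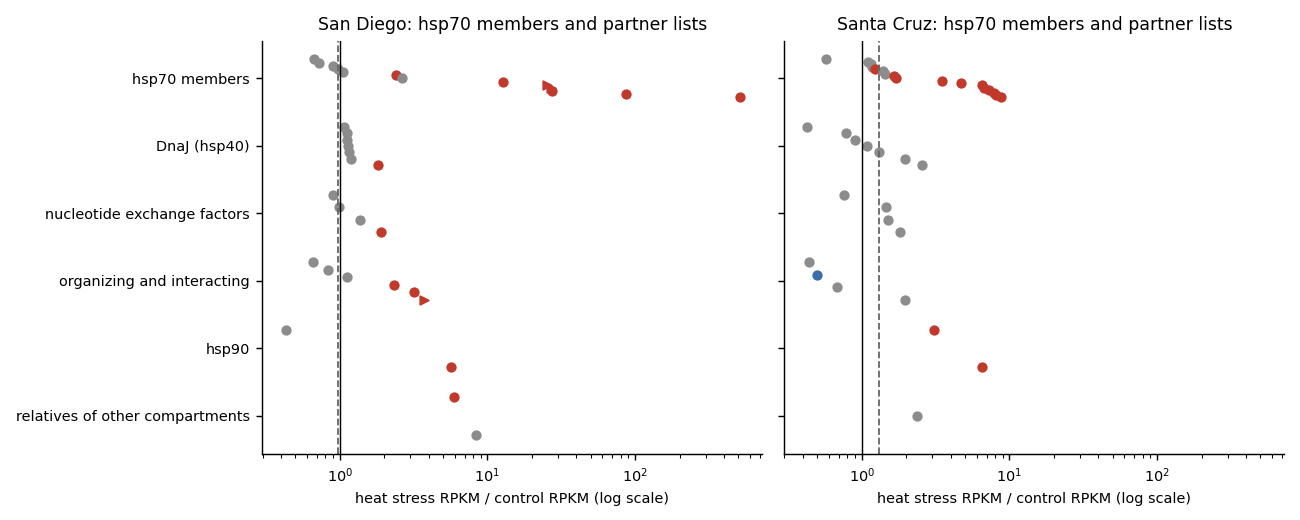
Heat stress RPKM over control RPKM of each hsp70 member and of the contigs of each partner list, on a log axis, with 1 point per contig; red points rose, the blue point fell, grey points were not called, triangles are lower bounds, and the dashed line is the median contig. Outside the hsp70 members the highest partner ratios above 0 in the control were 8.43 in SD and 6.52 in SC, and the blue point is the SC organizing protein homolog at 0.50.

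The named contigs outside the family whose levels in both libraries lay nearest to the median of the called low-control members, by distance on log2(RPKM + 1), were in SD a hypothetical protein matched to the salmon louse, cuticle protein 19 and translocase of outer membrane 34. Their levels were 0.454 and 101 RPKM, 7.28 and 180 RPKM, and 2.90 and 72.9 RPKM in control and heat stress. The median is over 5 members and 2 libraries. In SC, where it is that of SCN_Contig47501 alone, they were serine acetyltransferase (10.4 and 59.7 RPKM), pg1 protein (8.39 and 68.6 RPKM) and myosin heavy chain (9.45 and 51.8 RPKM).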

How the data were processed

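The authors mapped reads to an assembly of each population with CLC Genomics Workbench and deposited RPKM values per contig, for part of each assembly. Product names are best BLAST matches, and no contig sequence was used here.

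Members and partner lists were found by words in product names and were chosen with earlier results of these data known. Named with their values were called members, members at 10 RPKM or more, the called partners, and the 3 nearest named contigs per population. Kal's Z-test compared each contig's share of all RPKM in a library (Python 3.11.15, SciPy 1.17.1, NumPy 2.4.6, pandas 2.3.3), with Bonferroni adjustment and a threshold of 0.10.

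Whole reads were recovered by searching for library totals and shortest contig lengths that give whole reads in both libraries. A check on simulated data used these same shortest lengths, so it cannot show how far true lengths and reads exceed them. The match to whole reads had a chance under 0.05 for 88.6% of SD and 100% of SC contigs, but not for SD_Contig54602, SD_Contig54457 and SD_Contig36005. Reads and lengths are minima, so the interval for the fold change of a single contig (exact Clopper-Pearson, 95%) is wide rather than narrow. This does not hold for RPM values (Wilson, 95%), shares of the family's reads and ratios of summed reads. A contig may hold more reads than were recovered, which changes these values, and their intervals do not cover this. Contigs at 0 were set against a floor of 3 reads. Alternatives were the test on reads, Fisher's exact test, other thresholds, filters, added RPKM and class limits, scaling to the median contig, and a wider name rule.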

Additional observations from a re-analysis of the deposited data

Results flagged for a closer look

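For a pair of names the ratio lay on opposite sides of 1 in the 2 populations and both counting intervals excluded 1. Opposite sides alone were not particular to this pair. Further shared names had them with an SD interval that included 1. Among these were the heat shock 70 kda protein (0.967 in SD and 1.69 in SC), stip1 homology and u box-containing (0.828 and 1.97) and the hsc70-interacting protein (1.11 and 0.683). The heat shock cognate 70 protein had a heat stress to control ratio of 0.724 in SD, which was called lower on reads but not on RPKM, and 1.65 in SC, where the call was lost when scaled to the median contig. The hsp70 hsp90 organizing protein homolog had a ratio of 3.17 in SD and 0.50 in SC. Contigs that share a name may be different genes. In each case the difference between the populations was not tested over samples, since each condition had 1 library. Set to the median contig of each population, the cognate ratios were 0.741 and 1.26. The authors paired hsp70 genes by sequence, and those with ratios below 1 in SD and above 1 in SC were significant in neither population. Where they measured such genes by quantitative PCR, the ratio was higher in SC in the same RNA. In further replicate samples it was not. These genes were not matched to contigs here.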

How the results depend on the processing

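No paired analysis was possible because each condition of a population had 1 library. Of the counts, medians and sums recomputed under other settings, 68 values stayed within the limits set for them and 9 moved. These limits were wide, so staying within them shows little. A median only had to stay within its own interval, 0.0459 to 8.84 for the SD low-control members. The SC constitutive median of 0.361 when scaled, against 0.755, stayed, as did 8 SC members called up against 11. Class limits of 5 and 20 RPKM could change nothing in SD, where no member lay between 4.34 and 30.2 RPKM. The number of SD members called lower was 1 in place of 0 with Kal's test on reads, with Fisher's exact test on reads and at a Benjamini-Hochberg adjusted p of 0.05. The family ratio was 4.71 in SD and 2.68 in SC on summed RPKM, which counts pieces of 1 transcript repeatedly, and 1.79 in SC when scaled to the median contig, a setting added after the data were seen. The partner contigs of SC called on reads were 9 up and 3 down, against 2 and 1, and scaled to the median contig 2 were called down. Relative to the median contig SCN_Contig55684 turned to 0.929. The test on reads left out SCN_Contig47501 and added SD_Contig35793 as lower, and scaling left out SCN_Contig29723 and SCN_Contig54456; the cause of the other changes was not tested. With the hsp70 relatives added, 8 of 16 contigs rose in SD and 11 of 20 in SC. Depth limits the low-control SD members most: 5 SD members had under 10 control reads, and SD heat stress was 2.87 times as deep as SD control.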
